A study of Mus musculus with 18 samples.

Results

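Sulfiredoxin, thioredoxin with its reductase and its inhibitor, and the 6 peroxiredoxins were followed in mouse dorsal root ganglia 24 h after nerve or spinal cord surgery. The rows were taken by symbol, as those of the deposited count table named Srxn1, Txnrd1, Txn1, Txnip and Prdx1 to Prdx6. This set of genes was chosen with earlier results of these data known. All 10 were present among the 15730 genes of the table, and all 10 passed the filter on low counts, which removed no gene. The ganglia hold the cell bodies of the sensory neurons whose axons run in the sciatic nerve, together with satellite glia, Schwann cells and other cells. RNA was sequenced from 18 samples of C57BL/6 mice aged 6 to 8 weeks, with 3 samples in each of 6 groups, and each sample was a pool of the L4 to L6 ganglia of 2 mice. Sham_Saline mice had a sham operation in the presence of saline. SNA_Saline mice had an injury of the sciatic nerve, which damages the peripheral axon branch, with saline. SNA_NAC mice had the same injury with 30 mM N-acetyl-cysteine, a thiol antioxidant. Sham_H202 mice (spelled as in the labels) had the sham operation with 13 mM hydrogen peroxide. DCA mice had an injury of the spinal dorsal columns, which damages the central branch of the same neurons, and LAM mice had a laminectomy, the opening of the vertebra without a cord injury. The labels name saline for the nerve groups only, so DCA and LAM differ from those groups in the operation and in the saline.

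Peroxiredoxins are enzymes that remove hydrogen peroxide with a cysteine, and thioredoxin turns the oxidised cysteine back with electrons that thioredoxin reductase takes from NADPH. When peroxide is plentiful, the cysteine of the typical 2-cysteine peroxiredoxins can be oxidised further to a sulfinic acid, and sulfiredoxin, the product of Srxn1, is the enzyme that reverses this. Srxn1, Txnrd1 and Prdx1 are textbook targets of the antioxidant transcription factor Nrf2, Srxn1 is also known as a target of AP-1 (Fos and Jun proteins), and Txnip, which binds thioredoxin and blocks it, is known to follow glucose through MondoA and ChREBP.

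Total counts per sample ran from 6472476 to 42435331, and the 10 genes were well covered, from at least 268 counts a sample for Prdx4 to between 3195 and 45077 for Srxn1. Values are given as CPM, counts relative to the library total after TMM scaling, and as FPKM, the deposited level per transcript length, where genes are compared with each other. All 10 defining markers of sensory neurons were measured, with a summed level of 6330 to 8987 CPM in the 18 samples (6975 to 8987 in Sham_Saline and 6605 to 7066 in SNA_Saline). The summed level of the 6 Schwann cell markers was 6281 to 10340 CPM in Sham_Saline and 7943 to 8568 CPM in SNA_Saline. That of the 6 satellite glia markers was 2363 to 3349 CPM and 2672 to 2846 CPM, so none of these lists separated Sham_Saline from SNA_Saline. The sensory neuron sum did separate DCA (7161 to 7605 CPM) from LAM (6703 to 7068 CPM). The Schwann cell sum separated SNA_NAC (7364 to 7497 CPM) from SNA_Saline. The sum of 6 neutrophil markers was lower in SNA_NAC (169.3 to 225.2 CPM) than in SNA_Saline (261.5 to 407.7 CPM) and Sham_Saline (240.9 to 424.9 CPM), without overlap. That of 6 fibroblast markers separated DCA (849 to 948.4 CPM) from LAM (971.8 to 1105 CPM). 3 libraries stood apart. Leaving out Sham_Saline replicate 1 moved the genes called after sciatic injury from 430 to 2548, Sham_Saline replicate 2 had the strongest tilt with GC content, and Sham_H202 replicate 3 had the fewest counts and the opposite tilt. Sham_Saline replicate 2 also had 1171 CPM of the 6 skeletal muscle markers, which summed to 6.11 to 459 CPM in the other samples. In whole ganglia, fewer cells of a type and less RNA per cell cannot be told apart.

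The promoters of 4 of the genes are shown because they hold letters that match the known sites of the factors named above. RefSeq start sites (GRCm38.p6) were matched by symbol for 9 of the 10 genes, with 11 windows of 250 bases before a start, and 32851 windows of that length in all served as the background. Both strands were searched for TGANTCA (the letters of the AP-1 site), for TGACNNNGC (the core of the antioxidant response element), for TGANTCAGC, every match of which is also a match of TGANTCA, and for a pair of CACGNG letters 5 bases apart (the form of the carbohydrate response element). Each stretch is printed 5′ to 3′ on the plus strand, on which all 4 genes lie, up to the base before the first annotated exon in the window, with the matched letters in capitals.
Srxn1 (chr2:152105274-152105515): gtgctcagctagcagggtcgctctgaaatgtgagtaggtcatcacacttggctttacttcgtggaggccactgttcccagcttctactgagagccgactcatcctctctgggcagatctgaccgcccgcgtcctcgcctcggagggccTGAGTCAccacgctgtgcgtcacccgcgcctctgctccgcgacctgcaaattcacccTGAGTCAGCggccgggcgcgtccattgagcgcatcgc
Prdx1 (chr4:116685349-116685543): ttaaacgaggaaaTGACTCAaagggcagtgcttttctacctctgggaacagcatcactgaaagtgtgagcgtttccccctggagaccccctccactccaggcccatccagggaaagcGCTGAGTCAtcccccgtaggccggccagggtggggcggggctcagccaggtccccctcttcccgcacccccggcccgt
Txnrd1, inner start (chr10:82858956-82859178): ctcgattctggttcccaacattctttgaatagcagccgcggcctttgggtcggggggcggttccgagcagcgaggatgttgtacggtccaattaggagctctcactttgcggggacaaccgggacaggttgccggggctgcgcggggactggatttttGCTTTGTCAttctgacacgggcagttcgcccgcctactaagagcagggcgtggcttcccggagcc
Txnip (chr3:96557707-96557956): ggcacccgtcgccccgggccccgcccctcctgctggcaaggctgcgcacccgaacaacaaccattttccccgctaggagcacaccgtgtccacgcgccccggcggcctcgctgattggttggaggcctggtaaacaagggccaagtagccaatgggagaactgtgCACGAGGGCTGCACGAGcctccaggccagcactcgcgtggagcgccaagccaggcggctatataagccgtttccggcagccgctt
Srxn1 had 2 matches of TGANTCA, at 102 to 96 and 45 to 39 bases before its RefSeq start, and the nearer one continued to TGANTCAGC. Prdx1 had 2 matches of TGANTCA, at 237 to 231 and 131 to 125 bases, and the nearer one read on the minus strand was also a match of TGANTCAGC and of TGACNNNGC. Of the 9 genes searched, these were the 2 with TGANTCA, which 6.75% of all windows held, and with TGANTCAGC, which 1.02% held. Txnrd1 had 1 match of TGACNNNGC, on the minus strand, before 1 of its 3 starts, against 10.2% of all windows. Txnip had the CACGNG pair at 85 to 69 bases, which 15 of all windows (0.0457%) held. A match describes letters and not binding, and no binding was measured here.

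By the deposited FPKM, thioredoxin had the highest level of the 10 and the endoplasmic reticulum enzyme Prdx4 the lowest. The order of the genes depends on the gene lengths behind the FPKM, and other lengths were not tried. The median over the 18 samples was 698 FPKM for Txn1, 188 FPKM for Srxn1 and 150 FPKM for Prdx1. The cytosolic Prdx2 followed with 117 FPKM and the mitochondrial Prdx3 with 102 FPKM. Prdx5, an atypical peroxiredoxin found in several compartments, had 49.4 FPKM and Txnrd1 47.9 FPKM. Prdx5 lay above Txnrd1 without overlap in 1 of the 6 groups (DCA). In SNA_NAC the order was reversed without overlap, with Txnrd1 at 67.8 to 69.4 FPKM and Prdx5 at 36.2 to 55.3 FPKM. Prdx6, the 1-cysteine member of the family, had 32.6 FPKM, Txnip 29.4 FPKM and Prdx4 16.2 FPKM. Txn1 lay above Srxn1 in all 18 samples, without overlap in any group, while Srxn1 lay above Prdx1 in 15 samples and Prdx1 above Prdx2 in 15 samples. The genes also differed in how closely replicates agreed. The coefficient of variation of Srxn1 within a group was between 1.12% and 10.1%, and that of Prdx5 between 11.4% and 48.0%.

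**Figure D1:**
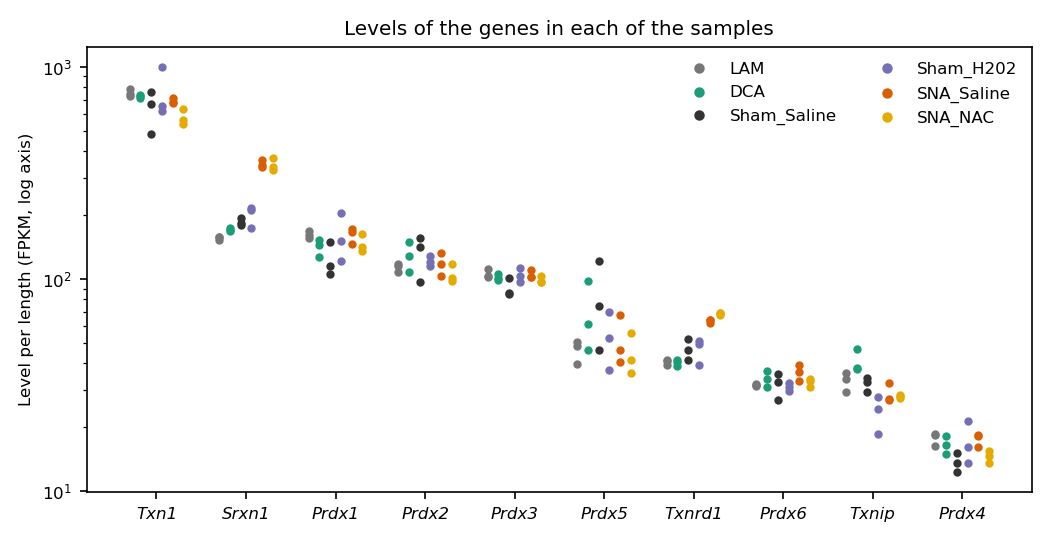
Deposited FPKM (log axis) of each gene in the 18 samples, coloured by group and ordered by the median. Txn1 lies highest in every sample (484 to 994 FPKM), and the SNA_Saline and SNA_NAC points stand clear of the other 4 groups for Srxn1 (327 to 372 FPKM) and Txnrd1 (62.0 to 69.4 FPKM).

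Sciatic nerve injury was followed by higher Srxn1 and Txnrd1, and the test called neither thioredoxin nor any peroxiredoxin. Srxn1 (ENSMUSG00000032802, chr2:152105516-152111376, GRCm38) had 507, 523 and 534 CPM in the Sham_Saline replicates 1 to 3. After injury it had 1055, 980 and 972 CPM in SNA_Saline. The groups did not overlap, and the lowest injured sample lay far above the highest sham sample. The group mean rose 1.92-fold, from 521 ± 13.8 CPM to 1002 ± 45.7 CPM (SD over 3 samples). The log2 fold change was 0.94 (SE 0.089, edgeR adjusted p = 9.71e-06), and its p was the 13th smallest of all genes. Each replicate number stands for 1 lane of the sequencer, and within lanes 1, 2 and 3 the log2 difference was 1.06, 0.91 and 0.86.

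Txnrd1 (ENSMUSG00000020250, chr10:82833951-82897712), the cytosolic enzyme that recharges thioredoxin, had 177, 160 and 139 CPM in Sham_Saline and 224, 219 and 218 CPM in SNA_Saline. Again no sample of one group reached the other. The mean rose from 159 ± 19.1 CPM to 221 ± 2.94 CPM (SD over 3 samples), which is a log2 fold change of 0.47 (SE 0.098, edgeR adjusted p = 0.0128), and within lanes 1, 2 and 3 the log2 difference was 0.34, 0.46 and 0.65. The call was lost without Sham_Saline replicate 3 (log2 fold change 0.39, adjusted p = 0.0517), without SNA_Saline replicate 1 (0.46, adjusted p = 0.0713) and with only the 6 samples of the comparison in the edgeR fit (0.47, adjusted p = 0.288).

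With these 2 genes, 2 of the 10 were called higher and 0 lower, where 2.16% of all genes tested were called higher and 2.73% in either direction. The median log2 fold change of the 10 was 0.24, against -0.03 over all genes. In 5 of the 10, every injured sample lay above every sham sample (Srxn1, Txnrd1, Prdx1, Prdx3 and Prdx4), against 10.3% of all genes.

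**Figure D2:**
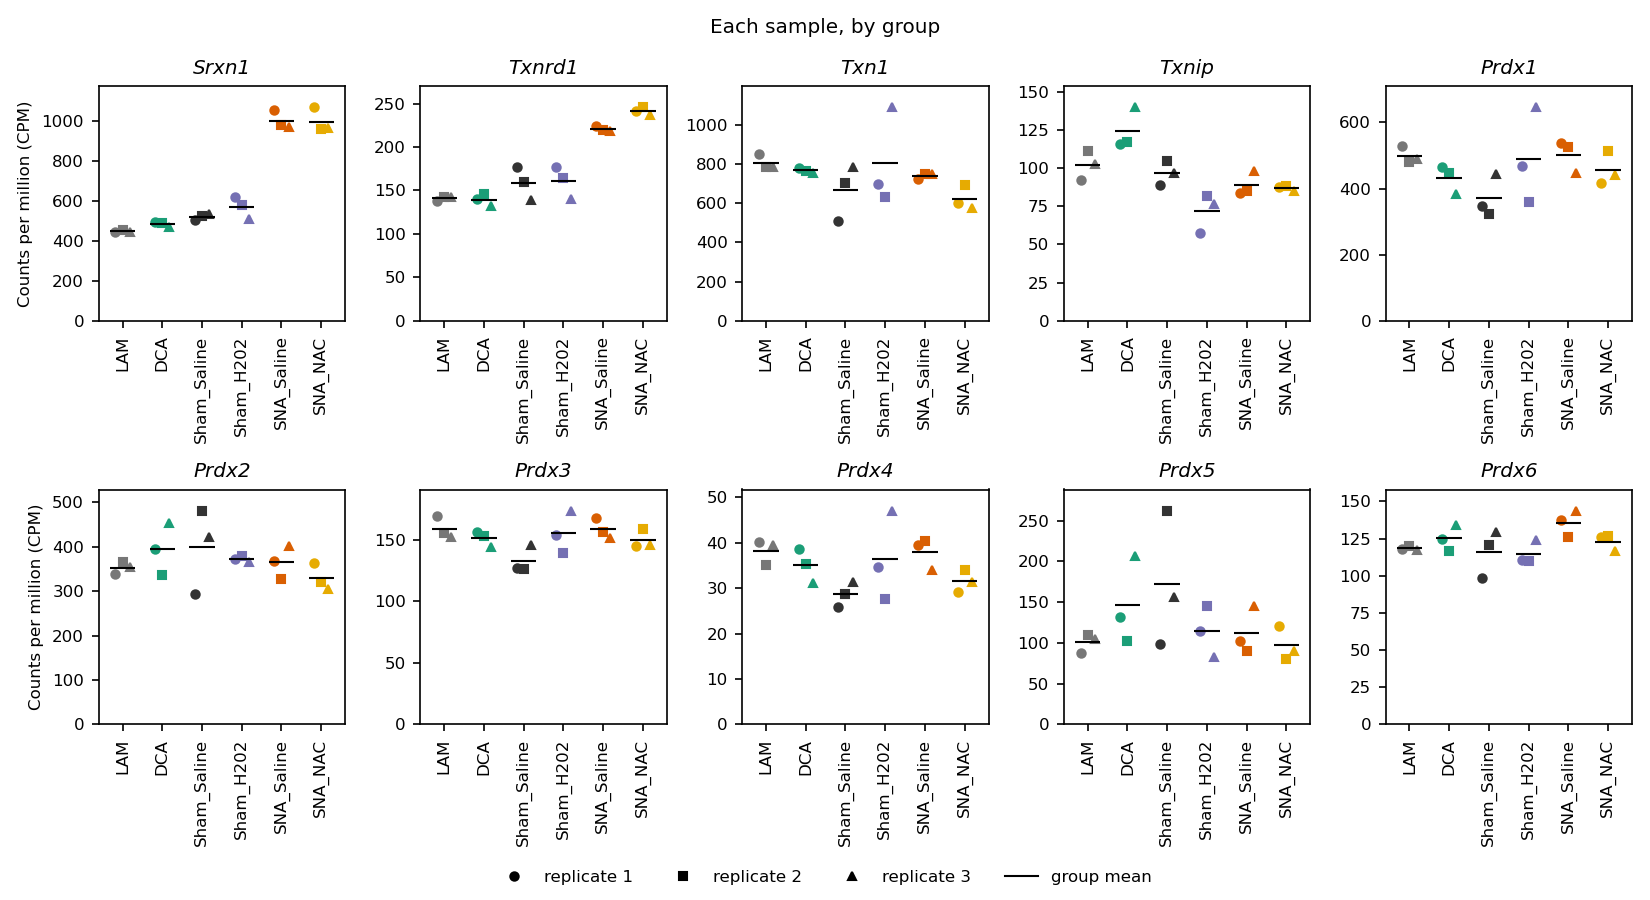
CPM of each of the 10 genes in every sample (points, shaped by replicate) with the group mean (line), 1 panel per gene with its own axis from 0. Srxn1 and Txnrd1 are high in both injured-nerve groups and low in the other 4, while Prdx5 is spread widely within groups, up to 262 CPM in Sham_Saline replicate 2.

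None of the peroxiredoxins that sulfiredoxin serves was called after nerve injury. Prdx1 (ENSMUSG00000028691, chr4:116685544-116700822), an abundant cytosolic member, had 349, 324 and 445 CPM in Sham_Saline and 537, 525 and 446 CPM in SNA_Saline. The highest sham and the lowest injured sample nearly touched, and the log2 difference of 0.43 (SE 0.17) was not called (edgeR adjusted p = 0.176). Prdx4 had 25.8 to 31.4 CPM in Sham_Saline and 34.1 to 40.3 CPM in SNA_Saline, with a log2 difference of 0.41 (adjusted p = 0.165). Prdx3 had 126 to 146 CPM and 151 to 168 CPM, a log2 difference of 0.25 (adjusted p = 0.163).
Prdx2, an abundant protein of red blood cells and neurons, had 294, 481 and 422 CPM in Sham_Saline and 368, 328 and 402 CPM in SNA_Saline, a log2 difference of -0.12 (edgeR adjusted p = 0.611) that was 0.03 without Sham_Saline replicate 2. The sham samples spanned the injured ones on both sides. The 7 red blood cell markers summed to 261, 788 and 853 CPM in the same sham samples and to 287, 402 and 723 CPM in the injured ones. The sham sample with the lowest sum had the lowest Prdx2, and the SNA_Saline sample with the highest sum had the highest Prdx2 of its group. The sham sample with the highest sum did not have the highest Prdx2. In SNA_Saline, replicate 2 had a higher sum and less Prdx2 than replicate 1. The part of blood in the Prdx2 values was not tested.

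Thioredoxin itself, Txn1 (ENSMUSG00000028367), had 507, 704 and 784 CPM in Sham_Saline and 725, 746 and 747 CPM in SNA_Saline, a log2 difference of 0.15 (95% interval -0.21 to 0.52, edgeR adjusted p = 0.59). Without Sham_Saline replicate 1 it was -0.0089. Its inhibitor Txnip (ENSMUSG00000038393) had 88.8, 105 and 96.8 CPM in Sham_Saline and 83.5, 85.1 and 98.3 CPM in SNA_Saline. The groups overlapped, with a log2 difference of -0.12 (95% interval -0.39 to 0.15, adjusted p = 0.558). Prdx6 had a log2 difference of 0.22 (adjusted p = 0.21).

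Prdx5 (ENSMUSG00000024953) had the largest difference of the genes that were not called, and the widest spread. It had 98.8, 262 and 156 CPM in Sham_Saline against 102, 89.7 and 145 CPM in SNA_Saline, a log2 difference of -0.62 (SE 0.32, edgeR adjusted p = 0.251). The 262 CPM of Sham_Saline replicate 2 carried most of it, since the log2 difference was -0.18 without that sample and -0.90 (adjusted p = 0.0514) without Sham_Saline replicate 1. The part of the muscle transcripts of that sample in its Prdx5 level was not tested. The GC content of the transcripts was set beside these levels. The longest Prdx5 transcript has a GC share of 56.4%, above that of 84.7% of the genes, and that of Prdx1 has 42.3%, above 13.8%. For each library, a slope of the genes' log2 CPM on GC share was computed, and Sham_Saline replicate 2 had the highest (0.43 log2 units per SD of GC share) and DCA replicate 3 the second highest (0.25), and these 2 samples had the highest Prdx5 (262 and 207 CPM). What part the tilt has in Prdx5 was not tested beyond the corrected fit. Sham_H202 replicate 3 had the lowest slope (-0.22), together with the highest Prdx1 of all samples (646 CPM). When the fit corrected for GC share and length, the log2 difference after nerve injury was -0.29 for Prdx5, 0.14 for Prdx1, 0.04 for Prdx3, 0.25 for Prdx4, 0.14 for Prdx6 and 0.01 for Txn1. It was 1.04 for Srxn1 (edgeR adjusted p = 8.79e-07) and 0.435 for Txnrd1 (adjusted p = 0.00299).

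**Figure D3:**
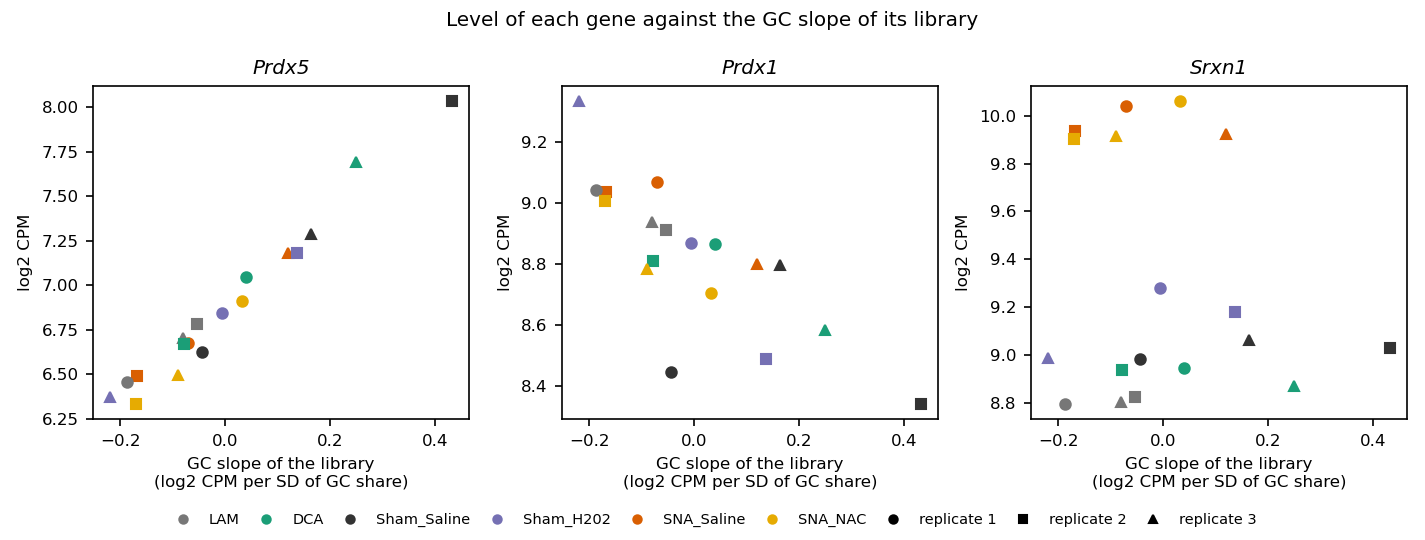
Log2 CPM of Prdx5, Prdx1 and Srxn1 in each sample against the slope of its library's log2 CPM on GC share (log2 units per SD). Prdx5 is highest where the slope is highest (Sham_Saline replicate 2, slope 0.43) and Prdx1 where it is lowest (Sham_H202 replicate 3, slope -0.22), while the 6 injured-nerve samples lie above the other 12 in Srxn1.

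With N-acetyl-cysteine at the injured nerve, no difference from saline was called in any of the 10 genes, and Srxn1 and Txnrd1 were again above sham. Srxn1 had 1068, 958 and 966 CPM in SNA_NAC, a range that overlapped that of the samples injured in saline, and the log2 difference from SNA_Saline was -0.01 (95% interval -0.19 to 0.18, edgeR adjusted p = 1). The lower end of that interval is far smaller than the increase over sham. Txnrd1 had 242, 246 and 237 CPM in SNA_NAC, each above every SNA_Saline sample, with a log2 difference of 0.13 (95% interval -0.08 to 0.34, adjusted p = 1). None of the 10 was called by edgeR, by DESeq2 or by limma on the FPKM values in this comparison, and none had an unadjusted p under 0.05. Over all genes edgeR called 0%, with 314 genes at an unadjusted p under 0.05. In 3 of the 10 the groups did not overlap (Txnrd1 higher, Txn1 and Prdx4 lower), against 14.9% of all genes. Txn1 had 599, 690 and 578 CPM in SNA_NAC, a log2 difference of -0.25 (95% interval -0.62 to 0.12).

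Against Sham_Saline, the samples that also served the first comparison, SNA_NAC had Srxn1 higher by a log2 fold change of 0.94 (SE 0.089, edgeR adjusted p = 1.01e-05) and Txnrd1 by 0.60 (SE 0.098, adjusted p = 0.00196). These were the 2 of 10 genes called, both higher, where 2.47% of all genes were called higher and 3.32% in either direction. With only the 6 samples of the comparison in the fit, Txnrd1 was not called (adjusted p = 0.131). Without Sham_Saline replicate 1, Prdx2 (log2 fold change -0.45, adjusted p = 0.0123) and Prdx5 (-1.11, adjusted p = 0.0125) were called as well, lower than in sham, in a fit that called 5861 of the 15730 genes. Without Sham_Saline replicate 2 the differences were -0.12 for Prdx2 and -0.39 for Prdx5, and with the correction for GC share and length that of Prdx5 was -0.38. The groups did not overlap for 3 of the 10 (Srxn1 and Txnrd1 higher, Txnip lower), against 21.2% of all genes.

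**Figure D4:**
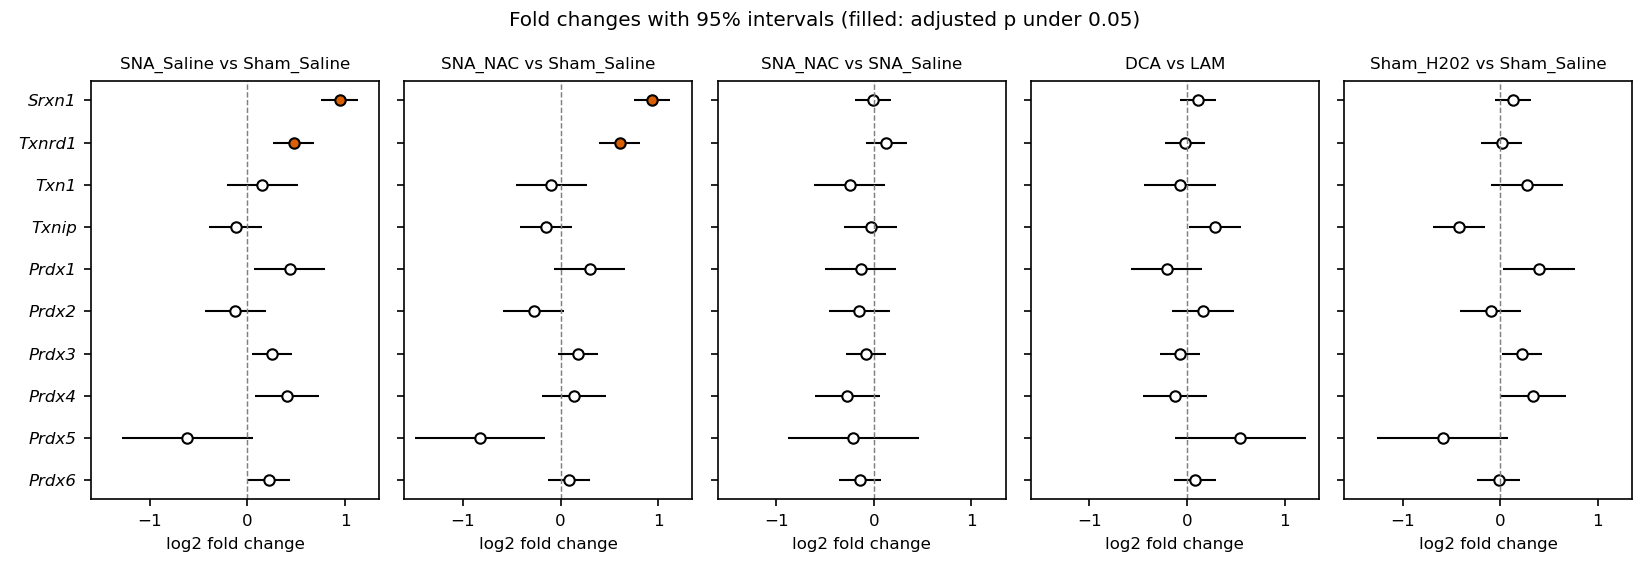
Log2 fold changes (points) with 95% intervals (lines) of the 10 genes in 5 comparisons, filled where the edgeR adjusted p was under 0.05. Only Srxn1 (0.94 in both) and Txnrd1 (0.47 and 0.60) are filled, in the 2 comparisons of an injured nerve with Sham_Saline, which share their sham samples.

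Injury of the dorsal columns was not followed by a called change in any of the 10 genes. Srxn1 had 444, 454 and 447 CPM in LAM and 493, 491 and 468 CPM in DCA. All 3 injured samples lay above the 3 controls, but the difference was small, a log2 fold change of 0.11 (95% interval -0.08 to 0.30, edgeR adjusted p = 0.631). Corrected for GC share and length it was 0.02. Txnrd1 had 138 to 143 CPM in LAM and 132 to 146 CPM in DCA, a log2 difference of -0.02 (95% interval -0.23 to 0.19). Txnip had 92.1, 111 and 103 CPM in LAM and 116, 117 and 140 CPM in DCA, so its groups did not overlap, with a log2 difference of 0.28 (95% interval 0.02 to 0.55, adjusted p = 0.624). Txnip was the only 1 of the 10 with an unadjusted p under 0.05, and neither DESeq2 nor limma called any of the 10. Over all genes edgeR called 0%, with 793 genes at an unadjusted p under 0.05. In 4 of the 10 the groups did not overlap (Srxn1 and Txnip higher, Txn1 and Prdx1 lower), against 21.7% of all genes.

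The response of Srxn1 to the peripheral injury was larger than its response to the central one. The nerve groups and the cord groups also differ in the operation and the saline, which cannot be told apart from the place of the injury. The difference of the 2 log2 fold changes, (SNA_Saline against Sham_Saline) minus (DCA against LAM), was 0.83 (SE 0.12, edgeR adjusted p = 0.00207), and Srxn1 was the only 1 of the 10 genes called, where 1.23% of all genes were called higher and 1.61% in either direction. With the lane as a block the number of all genes called went from 254 to 118, and Srxn1 was still called (0.83, adjusted p = 0.00442). Txnrd1 had a difference of 0.49 (SE 0.14, adjusted p = 0.0718). It was called by DESeq2 (adjusted p = 0.0132) and with the GC and length offsets (0.42, adjusted p = 0.0466). Prdx1 had a difference of 0.64 (adjusted p = 0.106) and Prdx5 of -1.16 (adjusted p = 0.108), and neither was called. With the GC and length offsets they were 0.15 and -0.56. Without Sham_Saline replicate 1, Txnrd1 (0.58, adjusted p = 0.0187), Prdx2 (-0.46, adjusted p = 0.0453) and Prdx5 (-1.44, adjusted p = 0.0239) were called too, in a fit that called 4600 of the 15730 genes. Without Sham_Saline replicate 2 the difference of Prdx5 was -0.73 (adjusted p = 0.316).

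The controls themselves were compared because the difference of the responses rests on both. Srxn1 was higher in all Sham_Saline samples (507 to 534 CPM) than in all LAM samples (444 to 454 CPM), with a log2 difference of 0.22 (SE 0.088, edgeR adjusted p = 0.125). Prdx1, Prdx3 and Prdx4 were lower in all Sham_Saline samples than in all LAM samples, with log2 differences of -0.42, -0.26 and -0.42 (adjusted p = 0.126, 0.112 and 0.113). Corrected for GC share and length, the differences were -0.06 for Prdx1, 0.004 for Prdx3, -0.23 for Prdx4 and 0.08 for Srxn1. In these 4 of the 10 the groups did not overlap, against 30.6% of all genes. None of the 10 was called by edgeR, where 0.0699% of all genes were called. Of the 10, 5 had an unadjusted p under 0.05, where 4765 of the 15730 genes had one. DESeq2 called 1083 of all genes and none of the 10, and limma called none of the 10. Without Sham_Saline replicate 1, Prdx2 (log2 difference 0.355, adjusted p = 0.0389) and Prdx5 (1.05, adjusted p = 0.0249) were called higher in Sham_Saline, in a fit that called 5009 of the 15730 genes. Without Sham_Saline replicate 2 the differences were 0.02 for Prdx2 and 0.34 for Prdx5.

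Hydrogen peroxide at the uninjured nerve, which is the substrate of the peroxiredoxins, was followed by no called change. Srxn1 had 622, 580 and 508 CPM in Sham_H202 against 507, 523 and 534 CPM in Sham_Saline. The groups overlapped, with a log2 difference of 0.13 (95% interval -0.06 to 0.315, edgeR adjusted p = 0.479). Txnrd1 had 177, 164 and 140 CPM in Sham_H202, and its log2 difference of 0.02 changed sign with the scaling of the libraries. Txnip was the gene nearest to a call. It had 57.3, 81.9 and 76.8 CPM in Sham_H202, each below every Sham_Saline sample, a log2 difference of -0.42 (SE 0.13, adjusted p = 0.449), and its p was the 52nd smallest of all genes. Within lanes 1, 2 and 3 the log2 difference of Txnip was -0.63, -0.35 and -0.33. It was the only 1 of the 10 whose groups did not overlap, against 5.43% of all genes.
Prdx1, Prdx3 and Prdx4 had log2 differences of 0.40, 0.23 and 0.34 (edgeR adjusted p = 0.449 each), and 1 library carried much of this. In Sham_H202 replicate 3, the sample with the fewest counts and the lowest GC slope, Prdx1 had 646 CPM against 467 and 359 CPM in replicates 1 and 2, and Txn1 had 1088 CPM against 696 and 632 CPM. Without it the log2 differences were 0.15 for Prdx1, 0.14 for Prdx3, 0.12 for Prdx4 and -0.0015 for Txn1, while that of Txnip was -0.47. Corrected for GC share and length, with all samples, they were 0.09 for Prdx1, 0.03 for Prdx3, 0.16 for Prdx4 and 0.11 for Txn1, and that of Txnip was -0.52. In all, 4 of the 10 (Txnip, Prdx1, Prdx3 and Prdx4) had an unadjusted p under 0.05. Neither DESeq2 nor limma called any of the 10, and over all genes edgeR called 0%, with 1440 genes at an unadjusted p under 0.05.

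The RNA of Srxn1 was set against that of the 4 peroxiredoxins that sulfiredoxin repairs (Prdx1 to Prdx4). This was described as the ratio of Srxn1 FPKM to the summed FPKM of the 4. The ratio is one of RNA, and no protein level was used here. The ratio was 0.58, 0.51 and 0.48 in Sham_Saline and 0.87, 0.86 and 0.87 in SNA_Saline. In SNA_NAC it was 1.03, 0.85 and 0.95. The level of the ratio depends on the gene lengths behind the deposited FPKM, and other lengths were not tried. It therefore does not show which transcripts were more numerous. The other groups had lower ratios, 0.38 to 0.40 in LAM, 0.43 to 0.46 in DCA and 0.38 to 0.59 in Sham_H202. The mean was 0.522 ± 0.0536 in Sham_Saline and 0.866 ± 0.00647 in SNA_Saline (SD over 3 samples), without overlap (exact 2-sided permutation p = 0.1, the smallest that 3 against 3 samples allow, adjusted p = 0.3 over the 12 ratio tests). DCA, at 0.439 ± 0.018, was also above LAM, at 0.392 ± 0.0137, in all samples (exact 2-sided permutation p = 0.1, adjusted 0.3). The ratios were not corrected for the GC tilt of the libraries. Corrected for GC share and length, the log2 difference of Srxn1 in DCA against LAM was 0.02. Those of Prdx1, Prdx2, Prdx3 and Prdx4 were -0.01, 0.16, 0.05 and -0.05. The ratio of Txnrd1 to Txn1 was 0.0900 to 0.0949 in SNA_Saline and 0.110 to 0.126 in SNA_NAC, and it spread from 0.0546 to 0.108 in Sham_Saline. The ratio of Txnip to Txn1 was 0.0515 to 0.0643 in DCA, above the 0.0375 to 0.0493 of LAM in all samples (exact 2-sided permutation p = 0.1, adjusted 0.3).

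**Figure D5:**
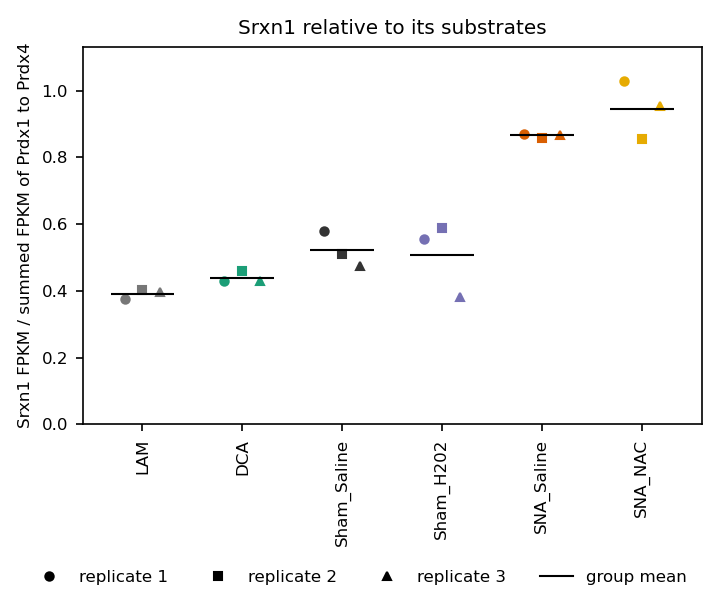
Ratio of Srxn1 FPKM to the summed FPKM of Prdx1, Prdx2, Prdx3 and Prdx4 in each sample (points, shaped by replicate) with the group mean (line). The 6 injured-nerve samples lie between 0.85 and 1.03, above the other 12 samples, whose highest ratio is 0.59.

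The wider thiol system was counted in 7 lists of 79 genes, of which 78 were measured. After sciatic injury 2 of the 78 were called, both higher, a share near the 2.73% of all genes called. The median log2 difference of the 78 was 0.01, against -0.03 over all genes. Txnrd3, a thioredoxin and glutathione reductase and relative of Txnrd1, rose from 18.8 to 25.4 CPM (group means), a log2 fold change of 0.43 (SE 0.11, edgeR adjusted p = 0.0357). It was also higher in SNA_NAC than in Sham_Saline (log2 fold change 0.45, adjusted p = 0.0261). Mthfd2, a mitochondrial folate enzyme, rose from 34.4 to 45.0 CPM, a log2 fold change of 0.39 (SE 0.097, adjusted p = 0.0409), and was not called in SNA_NAC against Sham_Saline (0.29, adjusted p = 0.0971). Of 14 partners of thioredoxin and glutaredoxin 1 was called (Txnrd3), and of 14 genes of NADPH supply 1 (Mthfd2). Of 7 enzymes that thioredoxin reduces, 8 other thiol peroxidases and sestrins, 14 genes of oxidative folding in the endoplasmic reticulum and 9 measured relatives and regulators of Txnip, 0 were called. Of 12 other Nrf2 targets, 0 were called as well, with 3 positive and 9 negative log2 differences and a median of -0.11. Among them Hmox1 (heme oxygenase) had 26.5 and 25.1 CPM in Sham_Saline and SNA_Saline, Nqo1 (a quinone reductase) 12.8 and 14.4 CPM, and Gclm (of glutathione synthesis) 163 and 190 CPM, with adjusted p of 0.825, 0.35 and 0.285. In DCA against LAM, SNA_NAC against SNA_Saline and Sham_H202 against Sham_Saline, 0 of the 78 were called.

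Likeness of pattern was measured as the root mean square difference of log2 CPM over the 18 samples, each gene centred on its mean. Among the 10 genes, Srxn1 was nearest to Txnrd1 (0.20) and farthest from Prdx5 (0.73). The closest pair of all was Prdx1 and Prdx4 (0.10), with Prdx1 and Prdx3 at 0.13. Of 12990 genes with a mean count of at least 50, those most like Srxn1 were Tmem43 (0.11), Acvr1, a receptor of bone morphogenetic proteins (0.12), Odc1, the ornithine decarboxylase of polyamine synthesis (0.13), Gfra1, the receptor of GDNF (0.13), and Dok5 (0.13), where the median gene was at 0.53. Those most like Txnrd1 were Ubn1 (0.06), Cnst (0.07), the amino acid transporter Slc1a4 (0.08), Spata13 (0.08) and Ano6 (0.10), with the median gene at 0.39. Among those most like Txnip were Tesk2 (0.12), Lbp (0.155), Gpt2 (0.16) and Ramp2 (0.17), with the median gene at 0.36. The points share their libraries, and genes of one sample are not independent.

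Some values could hold reads of other genes. The antisense gene Gm15441 overlaps Txnip on the opposite strand and had 5.08 to 13.9 FPKM in the 18 samples (median 8.93), Trmt112 overlaps Prdx5 with 8.21 to 26.9 FPKM, and Rnaseh2a and Junb overlap Prdx2. The kit marks the strand, but its use in counting is not given in the sources used here, so the values of Txnip, Prdx5 and Prdx2 are uncertain to that extent. Txnrd1 overlaps Eid3 on its own strand, which strand cannot separate, and Gm38560 and Gm47073 on the opposite strand, and for these no level was used here. The near copies Prdx6-ps2 and Prdx2-rs3 were listed at 0 FPKM in all 18 samples, and Prdx6b reached 0.0289 FPKM at most.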

How the data were processed

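RNA from 18 pools of dorsal root ganglia was sequenced from one end of strand-marked mRNA libraries, 6 libraries to a lane on 3 lanes, per the labels' protocols. The authors deposited whole-number counts per gene and FPKM values, and per the submitters' processing notes they used TopHat2 2.0.12, Bowtie2 2.2.3, HTSeq 0.6.0 and the genome build mm10 (GRCm38). For all 10 genes the deposited FPKM is the count times 1 factor per gene and 1 per sample. The sample factor of the CPM also holds the TMM scaling, so the 2 units can differ slightly between samples. No gene of the deposited table has a mean count below 10.1. The test was that of edgeR 4.0.16 under R 4.3.3 (TMM scaling, filterByExpr, glmQLFit and glmQLFTest), with all 18 samples in 1 fit, p-values adjusted by the Benjamini-Hochberg method over 15730 genes, and a threshold of 0.05. Each standard error is |log2 fold change| over the root of the F statistic. Alternatives were total-count and upper-quartile scaling, DESeq2 1.42.0, other filters, only the groups of a comparison, a replicate block, a threshold of 0.10, limma 3.58.1 on log2(FPKM + 1) and log2(FPKM + 0.1), and leaving out each sample. Offsets for GC share and length (splines with 5 degrees of freedom, longest GENCODE M21 transcript) and the ratios of FPKM were added after the data were seen. The genes, the lists and these tests were chosen with earlier results of these data known. The rule named all 10 genes, the called members of each list (up to 6 by p), and the 5 genes most like Srxn1, Txnrd1 and Txnip. Of these, 1 gene is not reported here.

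The replicate numbers equal the lanes in the labels, so they pair samples by lane and not by animal. A lane is a shared batch, so a fit with the lane as a block was also made. Deviations of same-numbered samples from their group means correlated between -0.65 and 0.56 over the 18 pairs checked. The replicates are pools of different mice, and nothing states separate preparations, so p-values measure the spread between these pools. Libraries carried no stated molecular identifiers. Scripts were tested on simulated data first. Exact permutation tests used scipy 1.17.1 and figures matplotlib 3.10.9.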

Additional observations from a re-analysis of the deposited data

Results flagged for a closer look

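Srxn1 responded differently to the 2 injuries. The difference of its log2 fold changes after sciatic nerve injury and after dorsal column injury was 0.83 (SE 0.12, edgeR adjusted p = 0.00207). Srxn1 was higher in 3 of 3 injured samples against the controls in each. In DCA against LAM it was not called (log2 fold change 0.11, edgeR adjusted p = 0.631), and with GC offsets the value was 0.02. The operation and the saline cannot be told apart from the place of the injury.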

How the results depend on the processing

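The increase of Srxn1 was called in 18 of 18 alternatives for SNA_Saline against Sham_Saline, in 18 of 18 for SNA_NAC against Sham_Saline and in 24 of 24 for the difference of the injuries. Txnrd1 was called in 15, 17 and 5 of the same alternatives. The number of the 10 genes called in SNA_Saline against Sham_Saline was 1 with only the groups of the comparison and 1 to 2 when each sample was left out (1 without Sham_Saline replicate 3 or SNA_Saline replicate 1). In SNA_NAC against Sham_Saline it was 1 with only the groups of the comparison and 2 to 4 when each sample was left out (4 without Sham_Saline replicate 1). In Sham_Saline against LAM it was 0 to 2 (2 without Sham_Saline replicate 1). For the difference of the injuries it was 2 with DESeq2, with a threshold of 0.10, with GC offsets and with GC offsets and the replicate block, and 1 to 4 when each sample was left out (4 without Sham_Saline replicate 1). Over all genes, 430 were called after sciatic injury, 863 with DESeq2, 65 with only the groups of the comparison, 822 at a threshold of 0.10, 1171 with GC offsets, 998 with GC offsets and block, and 174 to 2548 when each sample was left out, the highest without Sham_Saline replicate 1. For the difference of the injuries, 254 were called, 1638 with DESeq2, 151 with only the groups of the comparison, 2398 at 0.10, 829 with GC offsets and 118 with the replicate block. For SNA_NAC against Sham_Saline the 522 calls became 1222 with DESeq2, 68 with only the groups of the comparison, 1288 at 0.10 and 1196 with GC offsets, and the 11 of Sham_Saline against LAM became 1083 with DESeq2, 1 with only those groups and 25 with GC offsets. The replicate block alone changed no call of the 10 genes (Srxn1 0.83, adjusted p = 0.00442, and Txnrd1 0.50, adjusted p = 0.0871 for the difference of the injuries, by edgeR). The log2 difference changed sign in 46 of 1320 alternatives, none of them for a gene in a comparison where it was called. The adjusted p in these was 0.504 or more, and the cause was not tested. With GC offsets, and then with GC offsets and block, Txnrd1 was 0.018 and 0.0158 and Prdx3 0.0495 and 0.0494 in DCA against LAM. Srxn1 was 0.0416 and 0.0442 and Prdx3 0.0041 and 0.0042 in SNA_NAC against SNA_Saline, and Txnrd1 was -0.014 and -0.0146 in Sham_H202 against Sham_Saline. In Sham_Saline against LAM Txnip was 0.0642 and 0.0677, Prdx3 0.004 and 0.0042 and Prdx6 0.0872 and 0.0859. For the difference of the injuries Prdx3 was -0.0053 and -0.0057 and Prdx6 -0.0079 and -0.0058. Txnrd1 in Sham_H202 against Sham_Saline was -8e-04 with total counts, -0.0027 with at least 10 counts in every sample, and -0.004 and -0.0041 with limma at a pseudocount of 1 and 0.1. Prdx6 was 0.006 with upper quartile scaling there, and 0.0063 with total counts in Sham_Saline against LAM. When each sample was left out, the log2 difference in SNA_Saline against Sham_Saline ran from -0.0089 to 0.2881 for Txn1 and from -0.3025 to 0.0322 for Prdx2, and in DCA against LAM from -0.0528 to 0.0186 for Txnrd1. In SNA_NAC against SNA_Saline it ran from -0.0589 to 0.0317 for Srxn1, from -0.0765 to 0.0456 for Txnip and from -0.397 to 0.0175 for Prdx5. In Sham_H202 against Sham_Saline it ran from -0.0701 to 0.1048 for Txnrd1, from -0.0015 to 0.4233 for Txn1, from -0.276 to 0.0586 for Prdx2 and from -0.1243 to 0.065 for Prdx6. In SNA_NAC against Sham_Saline it ran from -0.258 to 0.0391 for Txn1 and from -0.0236 to 0.1654 for Prdx6, and in Sham_Saline against LAM from -0.1101 to 0.0789 for Prdx6. At least 268 counts a sample lay behind each value, and the common coefficient of biological variation over all genes was 17.4%.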
